A study of Homo sapiens with 2 samples.

Results

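The miR-7 names and the miR-3529 names that lie opposite to them were followed in small RNA libraries of K562, a human erythroleukaemia cell line with features of red cell and megakaryocyte precursors. The 5 members were chosen by name and not by their values, though earlier results of these data were known. They are hsa-miR-7-5p, hsa-miR-7-1-3p, hsa-miR-7-2-3p, hsa-miR-3529-3p and hsa-miR-3529-5p. All 5 are among the 2218 mature miRNAs of the deposited table. Cells given a lentivirus that overexpresses QKI5 were set against control cells given a GFP lentivirus. Each group had 1 library, and both were grown in the same medium and differ, per the labels, in the virus alone. The labels do not say whether transduced cells were kept as a pool or as clones, and the level of QKI5 itself was not analysed here. QKI5 is an isoform of Quaking, an RNA-binding protein, that resides in the nucleus. The question here was how these 5 names stand when QKI5 is raised, since earlier work in glial cells tied QKI proteins to the processing of the miR-7 primary transcript.

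miR-7 is an ancient miRNA, best known from neurons and from endocrine cells of the pancreas and pituitary. Its 5p strand guides Argonaute to messages such as that of the growth factor receptor EGFR, and the circular RNA CDR1as carries many sites for it. In cells outside the nervous system the proteins HuR and Musashi 2 are known to hold back the processing of the miR-7-1 primary transcript. A miRNA hairpin gives 2 strands, named 5p and 3p for the arm they come from. The letters at bases 2 to 8, the seed, decide most of the targets.

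The mature sequences are shown because the family shares and mirrors letters, which bears on every count below. They are from RefSeq on GRCh38.p14, which held all 5 members, and the capitals mark the seed.
miR-7-5p: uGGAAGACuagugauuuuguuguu
miR-7-1-3p: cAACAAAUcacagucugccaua
miR-7-2-3p: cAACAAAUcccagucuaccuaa
miR-3529-3p: aACAACAAaaucacuagucuucca
miR-3529-5p: aGGUAGACugggauuuguuguu
miR-379-5p: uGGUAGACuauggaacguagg
miR-7-1-3p and miR-7-2-3p have the same seed and are identical at 18 of 22 bases. Counted from the 5′ end, the changes from miR-7-1-3p to miR-7-2-3p are A10C, G17A, A20U and U21A. Among the 1946 names of the deposited table with a RefSeq sequence, no other has the seed of miR-7-5p or of miR-3529-3p. The seed of miR-3529-5p is also that of miR-379-5p, a 14q32 miRNA that is no member.

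miR-3529-3p is the exact reverse complement of miR-7-5p, over all 24 bases. miR-3529-5p pairs with miR-7-2-3p in a perfect antiparallel run of 20 bases, and both are 22 bases long. Neither miR-3529 name has a run of that kind over 9 bases with miR-7-1-3p. miR-7-5p and miR-3529-3p therefore have the same GC content, 33.3%, and the other 3 members have 40.9%.

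The mirror arises at the MIR7-2 gene, at chr15:88611825-88611934 on the plus strand, where MIR3529 is annotated on the minus strand at chr15:88611847-88611924 (GENCODE release 29 on GRCh38). Positions are those of the annotation. The authors' build was hg19, and no position was converted. miR-7-5p and miR-3529-3p fill the same interval, chr15:88611856-88611879, on the plus and the minus strand. miR-7-2-3p lies at chr15:88611896-88611917 (plus) and miR-3529-5p at chr15:88611894-88611915 (minus). No other gene overlaps the pair in GENCODE. The same miR-7-5p letters are also made from MIR7-1 at chr9:83969748-83969857 (minus strand) and from MIR7-3 at chr19:4770670-4770779 (plus strand). MIR7-1 lies within HNRNPK, the gene of an RNA-binding protein, on the same strand. It is intronic in 6 of the 7 HNRNPK transcripts that span it and overlaps an exon of the other. MIR7-3 is intronic to the long non-coding RNA MIR7-3HG, with no exon overlap. Reads of miR-7-5p cannot be assigned to any of the 3 hairpins, while miR-7-1-3p and miR-7-2-3p each belong to a single hairpin.

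The MIR7-2 and MIR7-3 hairpins are printed to show the shared 5p arm beside unlike 3p arms; the capitals mark listed mature names, miR-7-5p in both and miR-7-2-3p in MIR7-2. No 3p member is made from MIR7-3.
MIR7-2: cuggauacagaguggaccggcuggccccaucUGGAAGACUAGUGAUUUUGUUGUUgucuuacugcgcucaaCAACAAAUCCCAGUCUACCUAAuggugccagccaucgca
MIR7-3: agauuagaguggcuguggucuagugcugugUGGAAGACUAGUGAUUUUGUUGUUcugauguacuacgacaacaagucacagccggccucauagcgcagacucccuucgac
The hairpins of MIR7-1 and MIR3529 are named only. The QKI recognition element, searched as ACUAAC or ACUAAU, was in neither printed hairpin on either strand. On their own strand 1.54% of the 1562 RefSeq hairpins hold it, and 2.88% hold it on either strand. The shorter QKI half-site was searched as UAAC or UAAU. UAAC was in neither hairpin on either strand, while UAAU was in MIR7-2 on its own strand and in MIR7-3 on the opposite strand. On their own strand 12.5% of the RefSeq hairpins hold UAAC and 15.2% hold UAAU. UAAC and UAAU are also the last letters of ACUAAC and ACUAAU. These hairpins leave out the flanks of the primary transcripts, so nothing follows from this about binding.

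**Figure D1:**
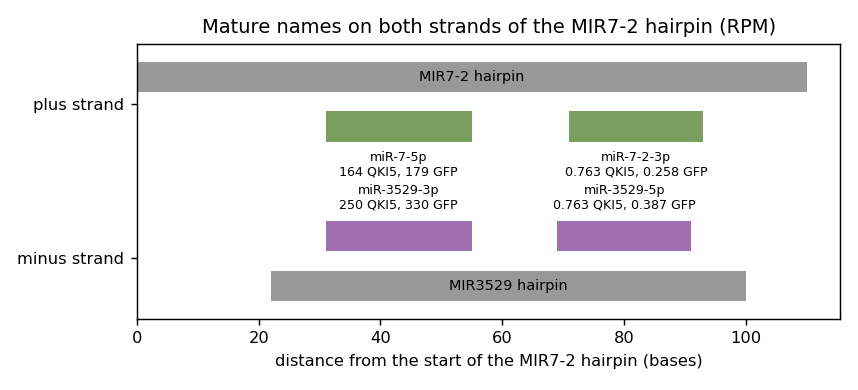
Mature names on the plus strand (green) and minus strand (purple) of the MIR7-2 and MIR3529 hairpins (grey), by distance in bases from the start of MIR7-2, with the RPM of QKI5 and GFP cells. miR-7-5p and miR-3529-3p fill the same interval, and both 3p-side names stand below 1 RPM. The RPM of miR-7-5p is that of all 3 miR-7 hairpins, since its reads cannot be assigned to MIR7-2.

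The deposited unit is RPM, that is, reads per 1000000 of a library's reads, although the table is named for RPKM. All values above 0 were whole multiples of a step shared by every miRNA of a library, so whole reads could be recovered. The QKI5 library rested on 6553945 reads and the GFP library on 23262340, a GFP depth 3.55 times as large. Of these, 59.5% in QKI5 cells and 66.3% in GFP cells were on listed miRNAs. Blood markers were present: miR-451a, miR-144-3p, miR-486-5p, miR-142-3p and miR-223-3p lay between 293 and 10426 RPM in QKI5 cells and between 528 and 9441 RPM in GFP cells. Of 6 markers of liver, muscle, neuron and endocrine cells, 5 were under 9 RPM in both libraries, and the neuronal miR-9-5p was at 332 RPM with QKI5 against 378 RPM with GFP. With 1 library a group there is no replicate check and no test of the treatment. All intervals are exact 95% intervals that cover counting error only, and the reads carry no molecular identifiers, so they are not independent molecules.

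hsa-miR-7-5p, the guide strand, was among the 200 names with the highest mean RPM in K562. It stood at 164 RPM in QKI5 cells (1075 reads) and at 179 RPM in GFP cells (4160 reads). These values ranked 127th and 118th among the 2218 names in the QKI5 and GFP libraries. The ratio of QKI5 over GFP was 0.917, with an interval of 0.857 to 0.981. On the scale the authors deposited the 2 libraries were thus close, with QKI5 slightly lower. The size depends on the scaling: the log2 ratio was -0.12 as deposited and -0.70 with edgeR's trimmed mean of M values (TMM). In such bulk RNA, fewer cells with a miRNA and less of it per cell cannot be told apart.

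hsa-miR-7-1-3p, the opposite arm of the HNRNPK hairpin, was nearly as abundant as the reads named miR-7-5p. It had 127 RPM in QKI5 cells (831 reads) and 138 RPM in GFP cells (3220 reads), at ranks 148 and 130. Its ratio was 0.916 (0.848 to 0.989), beside 0.917 for miR-7-5p. The directions of miR-7-5p and miR-7-1-3p turned with the scaling: when both libraries were scaled to their total of miRNA reads, the log2 ratios were 0.031 and 0.029, in place of -0.12 and -0.13 as deposited. With TMM factors both were at -0.70.

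hsa-miR-7-2-3p, the opposite arm of the chromosome 15 hairpin, was at the edge of detection. It had 5 reads in QKI5 cells (0.763 RPM) and 6 reads in GFP cells (0.258 RPM). Its ratio of 2.96 had an interval of 0.714 to 11.6, so a difference was not detectable at this depth. It made up 0.598% of the reads of both miR-7 3p names in QKI5 cells (0.194% to 1.39%) and 0.186% in GFP cells (0.0683% to 0.404%). The reads that can be told apart by hairpin thus came almost wholly from the miR-7-1 name in both libraries, with 831 against 5 reads in QKI5 cells and 3220 against 6 in GFP cells. The nearest miRNA gene to MIR7-2, MIR1179, lies on the same strand 3627 bases away, and miR-1179 had 1 read in each library.

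hsa-miR-3529-3p, the mirror of the guide, was the most abundant of the 5 names. It had 250 RPM in QKI5 cells (1640 reads) and 330 RPM in GFP cells (7673 reads), at ranks 102 and 92. The ratio was 0.759 (0.719 to 0.800), or 1.32-fold lower with QKI5. Its log2 ratio was below 0 under all 4 other scalings compared, from -0.97 with TMM factors to -0.24 when scaled to the total of miRNA reads. It was -0.020 once a straight-line trend over GC content was taken out.

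hsa-miR-3529-5p had 5 reads in QKI5 cells (0.763 RPM) and 9 in GFP cells (0.387 RPM). The ratio of 1.97 had an interval of 0.519 to 6.55, so no difference was detectable. There were 0.00305 reads of miR-3529-5p per read of miR-3529-3p in QKI5 cells (0.000989 to 0.00713) and 0.00117 in GFP cells (0.000536 to 0.00223). Both names on the 3p side of MIR7-2 were therefore within a few reads of each other, 5 and 5 in QKI5 cells and 9 and 6 in GFP cells. miR-379-5p, with the seed of miR-3529-5p, had 2170 RPM in QKI5 cells and 914 RPM in GFP cells.

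**Figure D2:**
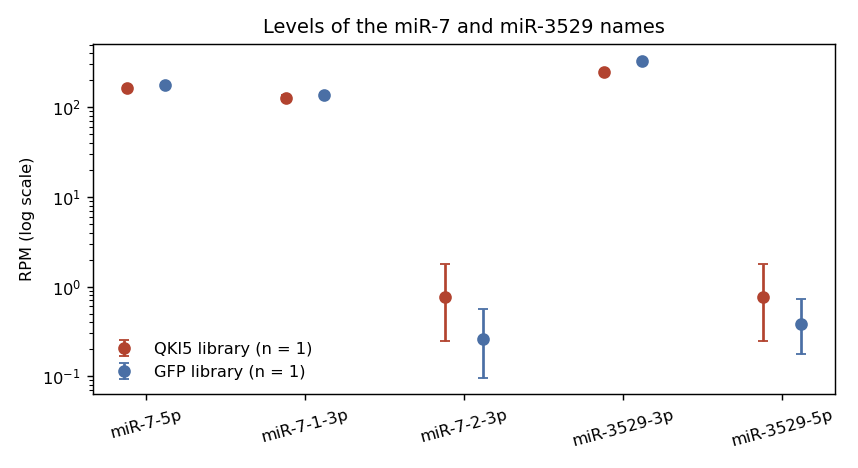
RPM on a log scale of the 5 names in QKI5 cells (red) and GFP cells (blue), 1 library each, with bars for exact 95% counting intervals. miR-7-5p, miR-7-1-3p and miR-3529-3p lie between 127 and 330 RPM, and miR-7-2-3p and miR-3529-5p lie under 1 RPM with wide bars.

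The 5 names together took 543 RPM in QKI5 cells and 648 RPM in GFP cells, a ratio of 0.838 (0.807 to 0.869). The 3 miR-7 names summed to 292 RPM with QKI5 against 318 RPM with GFP, a ratio of 0.918 (0.873 to 0.966). The 2 miR-3529 names summed to 251 RPM with QKI5 against 330 RPM with GFP, a ratio of 0.760 (0.720 to 0.802). Counted as a single value, miR-7-5p with miR-3529-3p had 414 RPM with QKI5 against 509 RPM with GFP. That ratio was 0.814 (0.781 to 0.849), outside the interval of miR-7-5p alone.

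As deposited, these differences were small beside those of other miRNAs. On the log2(RPM + 0.153) scale, the log2 ratio was -0.12 for miR-7-5p, -0.13 for miR-7-1-3p and -0.40 for miR-3529-3p. The median over the 200 most abundant miRNAs was 0.06, with an SD of 0.86. None of the 3 members among those 200 reached 2-fold, where 22% of the 200 did (15% higher and 7% lower with QKI5). A log2 ratio no larger in size than that of miR-7-5p was found for 9.5% of the 200, and 29% were at or below miR-3529-3p. The counting intervals of all 3 lay below a ratio of 1, but so did those of 44% of the 200, and 49.5% lay above it. An exact binomial test of the reads, which compares these 2 libraries and not the conditions, called miR-3529-3p and none of the other 4 members at an adjusted p under 0.05, against 21.4% of the 1995 miRNAs with a read and 91% of the 200 most abundant. Of the 2 members outside the 200, miR-7-2-3p was past 2-fold, at a log2 ratio of 1.16, and miR-3529-5p was not, at 0.76. Among the 441 miRNAs with 5 to 25 reads in both libraries together, 30.6% were at least 2-fold higher with QKI5. The 1 of 5 members past 2-fold stands beside 31.1% of the 1995 miRNAs with a read, a share that counts 127 miRNAs exactly at the threshold with 1 read in QKI5 cells and 0 in GFP cells.

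**Figure D3:**
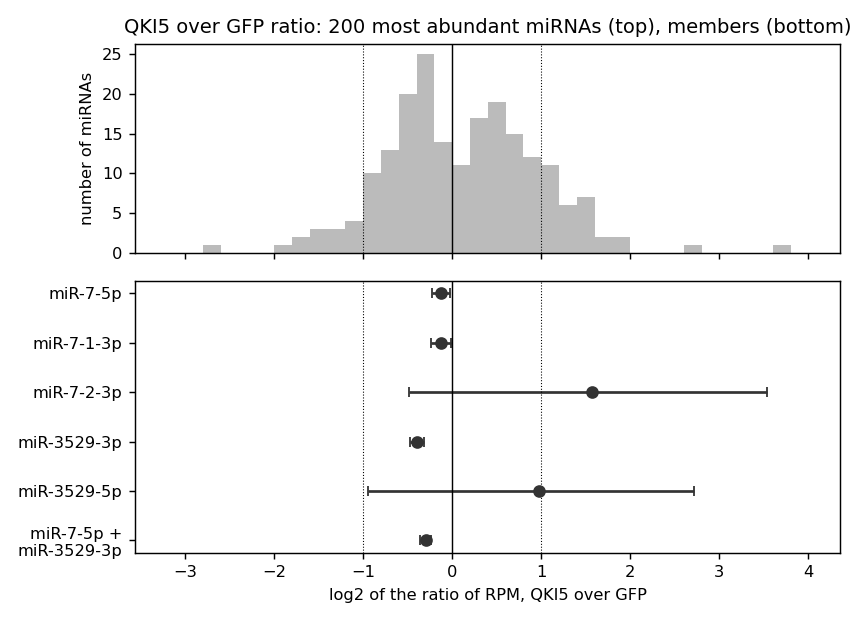
Top, histogram of the log2 ratio of QKI5 over GFP of the 200 most abundant miRNAs. Bottom, log2 of the plain ratio of RPM for the 5 names and for miR-7-5p summed with miR-3529-3p, with exact 95% counting intervals; dotted lines mark 2-fold. The 3 abundant names lie just below 0, well inside the spread of the 200, and the intervals of the 2 rare names cross 0.

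With reads taken as named, the arms of miR-7 stood in nearly the same proportion in both libraries. For each read of miR-7-5p there were 0.773 reads of miR-7-1-3p in QKI5 cells (0.705 to 0.847) and 0.774 in GFP cells (0.739 to 0.811). The QKI5 proportion over the GFP proportion was 0.999, with an exact interval of 0.901 to 1.11, so a change within that interval was not detectable. A common scaling factor cancels in this comparison, since both names come from the same library. Corrections that are not a common factor can change it. The log2 difference of miR-7-1-3p from miR-7-5p was -0.21 with a trend over GC content removed and -0.16 under quantile normalization. miR-7-5p from the other hairpins is included in these proportions, and reads named miR-3529-3p, its exact reverse complement, are left out. With those summed in, the 5p ratio of QKI5 over GFP was 0.814 (0.781 to 0.849), beside 0.916 (0.848 to 0.989) for miR-7-1-3p. On that count the proportion of miR-7-1-3p would be higher in QKI5 cells.

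With reads taken as named, such an even use of the arms was found in few other hairpins. The 3p names made up 43.7% of the miR-7 reads in QKI5 cells (41.5% to 46.0%) and 43.7% in GFP cells (42.5% to 44.8%). The other 102 hairpins with both arms among the 400 most abundant miRNAs had a median share of the less-read arm of 10.8% in QKI5 cells and 11.9% in GFP cells. As many as 3 of them in QKI5 cells and 8 in GFP cells reached the share of miR-7. The arms of the 102 differed in their log2 ratio by a median of 0.76 in size, and 41 differed by at least 1. For miR-7-1-3p and miR-7-5p the difference was 0.0019 in size, far inside its counting error. It was -0.037 with the GFP reads thinned to the depth of the QKI5 library, -0.21 with the GC trend removed and -0.16 under quantile normalization. This comparison was chosen after the members' values were seen, and 5p reads of miR-7 come from more than 1 hairpin. It leaves out the reads named miR-3529-3p, the exact reverse complement of miR-7-5p. Summed with these, miR-7-5p had 2715 reads in QKI5 cells and 11833 in GFP cells, against 836 and 3226 of the 3p names. On that count the 3p share would be lower in both libraries, and more of the 102 hairpins would reach it. That few others had such even use thus holds only for reads taken as named. Whether any reads named miR-3529-3p belong to miR-7-5p was not tested.

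**Figure D4:**
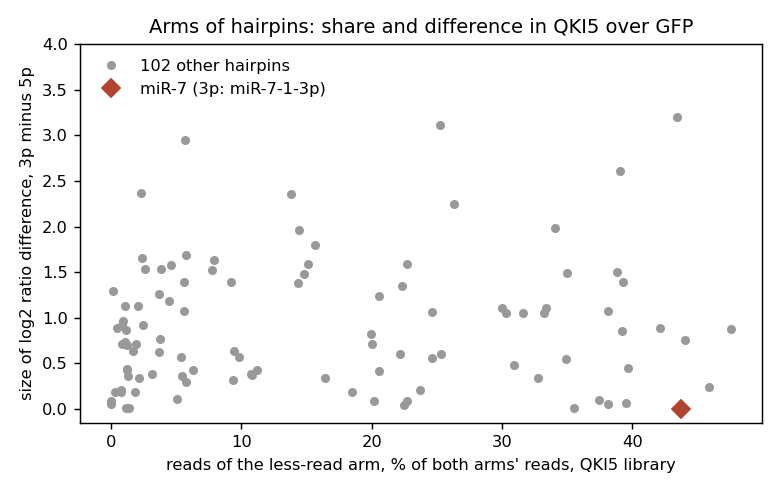
Each point is a hairpin: the share of its less-read arm in QKI5 cells (horizontal, % of both arms' reads) against the size of the difference between the log2 ratios of its arms (vertical). miR-7, drawn as a diamond with both 3p names in its share and miR-7-1-3p in its difference, sits at 43.7% and near 0. Reads named miR-3529-3p are not counted in it.

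The guide and its mirror did not keep the same proportion, by more than counting error. For each read of miR-3529-3p there were 0.655 reads of miR-7-5p in QKI5 cells (0.606 to 0.708) and 0.542 in GFP cells (0.522 to 0.563), and the counting intervals do not overlap. The QKI5 proportion was 1.21 times the GFP proportion (1.11 to 1.32). The difference between their log2 ratios was 0.27 as deposited. A common scaling factor cancels in it, and a GC correction acts alike on names of equal GC content. Quantile normalization, which can change it, gave 0.11. Whether the authors' counting used strand, and where a read matching both strands of a locus was placed, is not stated in the labels, and its part in this result was not tested. With 1 library a group, the variation of this proportion between cultures is unknown.

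Other miRNAs with a named partner on the opposite strand give a scale for this. RefSeq holds 82 pairs of listed names with a perfect antiparallel match of at least 16 bases, of which 34 lie on opposite strands of a locus and 9 have both names among the 400 most abundant. In each of the 8 other pairs the name with the lower number, or the earlier letter, held most of the reads, from 72.2% to 96.5% in QKI5 cells and from 72.6% to 97.9% in GFP cells. The 8 pairs are not 8 separate loci: both arms of miR-423 pair with miR-3184 names, and both arms of miR-642a with miR-642b names. miR-7-5p instead held 39.6% of its pair in QKI5 cells (37.7% to 41.5%) and 35.2% in GFP cells (34.3% to 36.0%).

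Several of these pairs had nearly the same split in both libraries. miR-103a-3p held 73.9% of its pair with miR-103b in QKI5 cells and 73.9% in GFP cells, while each name was higher with QKI5, at log2 ratios of 1.08 and 1.09. miR-423-5p held 74.8% of its pair with miR-3184-3p in each library. miR-642a-3p held 72.2% with QKI5 and 72.6% with GFP beside miR-642b-5p, and miR-374b-5p held 83.2% and 83.5% in the QKI5 and GFP libraries beside miR-374c-3p. The remaining 4 moved by 1.81 to 2.70 percentage points. They were miR-550a-3p with miR-550b-2-5p, miR-423-3p with miR-3184-5p, miR-642a-5p with miR-642b-3p, and miR-24-3p with miR-3074-5p. The share of miR-7-5p was 4.44 percentage points higher in QKI5 cells than in GFP cells. On the log2 scale, the partners' ratios differed by 0.27 for miR-7-5p and miR-3529-3p, against a median of 0.09 and a range of 0.0011 to 1.19 over the other 8, of which 6 were smaller.

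**Figure D5:**
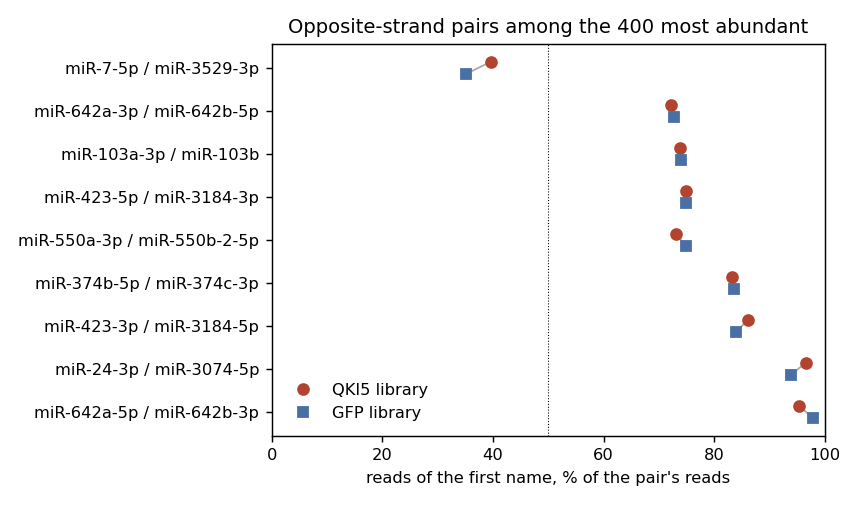
Share of the pair's reads held by the first name of each of the 9 opposite-strand pairs, in QKI5 cells (red circles) and GFP cells (blue squares). miR-7-5p holds 39.6% and 35.2% in the QKI5 and GFP libraries, and the first names of the other 8 pairs lie at 72.2% or more.

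The miRNAs nearest to the members in level, by Euclidean distance in the log2 values of the 2 libraries, were the following. Around miR-7-5p they were miR-503-5p, at 172 RPM with QKI5 against 186 RPM with GFP, then miR-410-3p, miR-486-3p, miR-323a-3p and miR-30e-5p, at distances of 0.09 to 0.24. miR-30d-5p (127 RPM with QKI5 against 133 RPM with GFP) and miR-4483 were nearest to miR-7-1-3p. miR-1185-1-3p, at 257 RPM with QKI5 against 356 RPM with GFP, was nearest to miR-3529-3p. The next were miR-299-3p, miR-374a-5p, miR-494-3p and miR-655-3p, at distances up to 0.39. miR-3155a and miR-3928-3p had the same 5 and 6 reads as miR-7-2-3p, and miR-320d and miR-6852-5p the same 5 and 9 reads as miR-3529-5p, in the QKI5 and GFP libraries.

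Among other miRNAs that earlier work names with QKI or with the miR-7 network, miR-671-5p was past 2-fold. It directs the cleavage of CDR1as, and had 15.6 RPM in QKI5 cells (102 reads) and 5.72 RPM in GFP cells (133 reads). That is 2.72-fold higher with QKI5 (2.08 to 3.55). Its log2 ratio, 1.42 as deposited, was under 2-fold with TMM factors, at 0.85, and with the GC trend removed, at 0.81. Its other arm, miR-671-3p, had 7.78 RPM with QKI5 against 6.23 RPM with GFP, a ratio of 1.25 (0.889 to 1.73). miR-20a-5p and miR-20a-3p, from the miR-17-92 cluster, had ratios of 0.653 and 0.533. miR-124-3p and miR-124-5p, the neuronal miRNA, had at most 2 reads in either library. Of these 6 names beside the members, 2 were at least 2-fold higher by the log2 ratio, miR-671-5p and, at the threshold with 1 read against 0, miR-124-3p. None was at least 2-fold lower. Of the 1995 miRNAs with a read, 23.8% were at least 2-fold higher and 7.27% lower. The median log2 ratio of the 6 was -0.15, against 0.12 over all 1995 miRNAs with a read.

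Brain and endocrine miRNAs, from the tissues where miR-7 is known to be high, lay on both sides of a ratio of 1, and 8 of 19 names were among the 400 most abundant. Of 19 names, all with a read in some library, 9 had a log2 ratio above 0 and 10 below, with a median of -0.04 against 0.12 over all miRNAs with a read. The most abundant were miR-128-3p, at 407 RPM with QKI5 against 356 RPM with GFP, and miR-9-5p, at 332 RPM with QKI5 against 378 RPM with GFP. miR-7-5p as named lay below both in each library. Its sum with miR-3529-3p, 414 RPM with QKI5 and 509 RPM with GFP, lay above both. miR-9-3p had a ratio of 1.17, miR-132-5p of 0.721, miR-132-3p of 0.676 and miR-218-5p of 0.928. miR-129-5p was 2.76-fold higher with QKI5 (2.0 to 3.78), on 73 reads in QKI5 cells and 94 in GFP cells, and its log2 ratio of 1.43 was 0.87 with TMM factors. miR-129-2-3p was just past 2-fold, at 1.01, and at 0.47 with TMM factors. miR-375, known from pancreatic islets, had 8.54 RPM with QKI5 against 6.19 RPM with GFP, a ratio of 1.38 (0.995 to 1.89). By the 2-fold rule 3 of the 19 were higher (miR-129-5p, miR-129-2-3p and miR-124-3p) and 1 was lower (miR-153-5p, with 0 reads in QKI5 cells and 5 in GFP cells), which stands beside 23.8% higher and 7.27% lower of the 1995 miRNAs with a read.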

How the data were processed

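Small RNA was isolated with a miRNA kit, made into Ion Torrent libraries and read on an Ion Proton, per the labels' protocols. Reads were aligned with Bowtie 0.12.3 and the build was hg19, per the submitters' processing notes. The miRNA annotation, mismatches and use of strand are not stated there. The values the authors deposited are RPM: 100.0% of those above 0 were whole multiples of 1 read (0.153 RPM for QKI5, 0.0430 RPM for GFP) within 0.1 read, so the columns are not RPKM. The members, lists and tests were chosen with earlier results of these data known.

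The log2 ratio of QKI5 over GFP used log2(RPM + 0.153), which understates the ratio of rare miRNAs. Ratios of RPM carry an exact conditional (Clopper-Pearson) 95% interval, shares an exact binomial one, and within-library proportions were compared by the exact conditional odds ratio. A count of 0 (at most 3 reads) allows 0.458 RPM for QKI5 and 0.129 RPM for GFP. The 200 and 400 most abundant miRNAs are by mean RPM. Named miRNAs were the members, their nearest in level (5 for miR-7-5p and miR-3529-3p, 2 for the others), lists, opposite-strand pairs and seed relatives; miR-1179 was added for its position. The whole reads were also compared by an exact binomial test, adjusted after Benjamini-Hochberg at 0.05, which sets these libraries and not the conditions side by side and called 426 of 1995 miRNAs. Tools were Python 3.11.15, numpy 2.4.6, scipy 1.17.1, pandas 2.3.3, statsmodels 0.14.6 and edgeR 4.0.16 (TMM factors). Scripts were tested on simulated data.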

Additional observations from a re-analysis of the deposited data

How the results depend on the processing

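No paired analysis was possible because each group has 1 library. Scaling moved the abundant members beyond their counting intervals in most cases; miR-7-1-3p without the 10 most abundant, and miR-7-5p and miR-3529-3p under quantile normalization, stayed inside. The shift in log2 ratio was 0.16 when scaled to the total of miRNA reads, -0.11 without the 10 most abundant, -0.58 with edgeR TMM factors and a median of -0.13 over the 200 most abundant under quantile normalization. In that order, miR-7-5p was at 0.031, -0.23, -0.70 and -0.21, miR-7-1-3p at 0.029, -0.23, -0.70 and -0.38, and miR-3529-3p at -0.24, -0.51, -0.97 and -0.32. With the GC trend removed (0.27 per 10 percentage points of GC over 358 miRNAs, an alternative chosen after seeing the data), they were at 0.25, 0.045 and -0.020. Summed with miR-3529-3p, miR-7-5p was at -0.30. The members at least 2-fold apart numbered 1 as deposited, 0 with a pseudocount of 1 RPM or 10 times the pseudocount, with TMM factors and under quantile normalization, and 2 after thinning GFP to the QKI5 depth or at 1.5-fold. Those 2 were the rare miR-7-2-3p and miR-3529-5p, and the share over all miRNAs with a read is not given for these settings. As deposited, 30.6% of the 441 miRNAs with 5 to 25 reads in both libraries together were at least 2-fold higher with QKI5. At least 2-fold apart were 44 of the 200 most abundant miRNAs, against 112 of the 400 most abundant and 620 of all with a read; 99 of the 200 were at least 1.5-fold apart. The binomial test, another rule over 1995 miRNAs, called 426, of which 231 were also at least 2-fold apart, and 182 of the 200. Of the 2-fold calls among the 200 most abundant, 68.2% were higher with QKI5 as deposited and 77.4% when scaled to miRNA reads. That share was 56.1% without the 10 most abundant, 47.4% under quantile normalization and 12.9% with TMM factors. After thinning, GFP cells had 0.543 reads of miR-7-5p for each of miR-3529-3p. The rare members rest on 5 to 9 reads a library, and depth limits them. The causes of these shifts were not tested.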

Other observations

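Apart from the mirror at MIR7-2, 3 mature names of the 2370 in RefSeq share a run of at least 12 bases with a member. They are miR-338-3p with miR-7-5p, miR-3065-5p with miR-3529-3p, and miR-6834-5p with miR-3529-5p, each over 13 bases. miR-338-3p and miR-3065-5p are themselves on opposite strands of a locus. There the later-numbered name also held more reads, 20 for miR-3065-5p and 1 for miR-338-3p in the QKI5 library, and 67 and 7 in the GFP library. These values are too few for a comparison of the libraries. That pair is not the only other one in which the later name held more reads. miR-219b-5p had 31 reads in QKI5 cells and 169 in GFP cells, and miR-219a-2-3p on the opposite strand had 0 in both.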
